A study of Mus musculus with 78 samples.

Results

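Heat shock proteins and the chaperones that work with them were followed through ageing soleus muscle of the mouse. The set held 49 genes, taken by mouse symbol from the 36904 gene IDs of the count table, and all 49 were among the 18218 genes that passed the filter on low counts. By role they were 5 HSP70 genes, 3 HSP110 genes, 5 mitochondrial chaperones, 2 HSP90 genes, 7 small heat shock proteins, 8 J-domain co-chaperones, 2 BAG co-chaperones, 2 heat shock factors, 8 partner proteins of HSP90 and HSP70, and 7 subunits of the CCT chaperonin. They were chosen by name and not by a measured value, but with earlier results of these data known.

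RNA was sequenced from whole soleus of C57Bl/6 mice, with no further genotype given, in 77 replicates from 78 libraries, each replicate labelled as a separate mouse. All control groups ate control feed. Batch 1 had only controls: 4 females with 6 males (6 months old), 6 with 6 (12 months old), 6 with 9 (20 months old) and 6 with 5 (28 months old). Batch 2 had 7 females and 10 males on control feed, plus 12 males given CaAKG (calcium alpha-ketoglutarate, a salt of a metabolic intermediate) at 2% of the feed. All batch 2 mice and the oldest mice of batch 1 are labelled M28, which was read as 28 months. The series text names a supplier in Singapore for the 6- and 12-month mice and another in the USA for the 20-month mice, so age and source cannot be told apart across that gap. Mice for the feeding study were brought in separately, and the labels do not say which control libraries of 28 months came from them.

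Chaperones bind unfolded proteins and keep them from aggregating. HSP70 works in a cycle driven by ATP, with J-domain proteins that bring it clients, HSP110 and BAG proteins that release its nucleotide, and Stip1, which passes clients on to HSP90. Small heat shock proteins hold unfolded proteins without ATP and are abundant in muscle, where Cryab and Bag3 protect the Z-disc and its filaments, and the CCT ring folds actin and tubulin. The transcription factor Hsf1 switches on many of these genes in stressed cells by binding inverted repeats of the letters GAA, called heat shock elements.

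Sequencing depth was 19.5M to 112.4M counts per replicate (median 35.2M), and the mitochondrial genome took 10.05% to 46.52% of them. All 9 soleus markers were present in every replicate. Xist or Ddx3y went against the label in 5 libraries, among them 6-month female replicate 3 and 12-month male replicate 3, and 9 others held over 100 CPM (counts per 1000000 counts) of summed skin or marrow transcripts. They were unevenly spread. Skin or marrow transcripts were found in 3 of the 6 batch 1 females of 28 months and in 4 of the 12 CaAKG males. Among the 6 females of 12 months, 2 went against their label and 1 other held such transcripts. The 14 were kept in their labelled groups, and counts are also given without them. In bulk RNA fewer cells of a type and less RNA per cell cannot be told apart.

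Many chaperone genes were lower in older males than in males of 6 months. In males of 28 months, set against those of 6 months, 19 of the 49 genes had fallen and 1 had risen (edgeR quasi-likelihood test, adjusted p under 0.05, from 1 model over all 11 groups, as for every count below). Falls were thus 38.8% of the chaperone genes, while 9.38% of all genes tested fell, 6.76% rose and 16.1% were called in either direction. The median log2 fold change was -0.36 for the chaperone genes and 0.02 for all genes. In females of the same ages 3 rose and 7 fell, against 9.91% of all genes that rose, 9.04% that fell and 18.9% called, and the median was -0.05. The 7 genes that fell in females (Bag2, Cacybp, Dnaja3, Fkbp4, Hspa1l, Hspb2 and Hspe1) were among the 19 that fell in males, 36.8% of the male list. The sexes were not shown to differ. In the test of the sex by age interaction 0 members passed (0.329% of all genes did), 0 with limma-voom and 3 with DESeq2. An unadjusted p under 0.05 (edgeR) was held by 14 of the 49 members and by 2157 of the 18218 genes tested. Without the doubted libraries 1 rose and 26 fell in males, and 3 rose and 2 fell in females, and a fit of the compared female groups alone called 0 members.

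At 20 months the falls were more numerous. In males 1 gene rose and 29 fell, 59.2% of the members, on a background of 22.6% of all genes that rose, 22% that fell and 44.6% called. In females 4 rose and 14 fell, on a background of 18.2%, 17.8% and 36.0%, so the share called (36.7%) was close to that of all genes. With another reference library for the scaling the females had 2 rises and 17 falls, and without the doubted libraries 2 and 17. All 14 genes that fell in females also fell in males, where they were 48.3% of the list. The 20-month groups stand on both sides of the next comparison: from 20 to 28 months 10 genes rose and 2 fell in females (17.3%, 12.6% and 29.9% of all genes), and 9 rose and 3 fell in males (8.25%, 8.78% and 17.0%). These counts share the 20-month libraries with the 20 to 6 month counts and are no separate evidence of a dip at 20 months. Limma-voom called 22 rises and 6 falls in males.

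Transcript length moved with all of these age contrasts. Over 17766 genes the rank correlation of the log2 fold change with transcript length was 0.31 and 0.35 at 28 against 6 months (females, then males), 0.58 and 0.53 at 20 against 6 months, and -0.42 and -0.52 at 28 against 20 months. At 12 against 6 months it was -0.27 and -0.21. Between batches of 1 age it was also present, at 0.37 and 0.40 for batch 2 against batch 1 at 28 months. With offsets that remove a smooth trend on length and GC content, 0 members rose and 3 fell from 6 to 28 months in females and 1 rose and 12 fell in males. For 20 against 6 months the counts were 1 and 4 in females and 1 and 27 in males, and for 28 against 20 months 1 and 1 in females and 0 and 0 in males (6 at an unadjusted p under 0.05). The part of the length trend in each single result was not tested further. Shares of all genes are given for the main fit only and are no background for counts under offsets or other settings.

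Summed markers of other cells and of soleus muscle also differed between ages. The 10 endothelial markers, each present in every replicate, summed to 99.5 to 211 CPM in 6-month males, 124.1 to 231 at 12 months, 581 to 779 at 20 and 270 to 508 at 28 months. In females they summed to 131 to 363, 63.4 to 288, 552 to 728 and 106 to 467 CPM. The summed soleus markers were lower at 20 than at 6 months without overlap, at 48795 to 63230 against 64280 to 77558 CPM in males and 65685 to 75390 against 76543 to 90897 CPM in females, while the 28-month groups overlapped the 6-month groups. The 12 immediate early genes, which answer stress and activity within minutes, summed to 254 to 635 CPM in 6-month males and 319 to 457 at 28 months, and to 295 to 370 and 476 to 665 CPM in females, where the groups did not overlap. Neutrophil markers summed to at most 3.56 CPM in 28-month males of batch 1 and reached 1615 CPM in females. Summed fast fibre markers differed between sexes and batches at 28 months. They were at 6738 to 13860 CPM in batch 2 control females and 13930 to 23050 in batch 2 control males, without overlap. Batch 1 females of that age had 15608 to 46750 CPM, all above the batch 2 females, with the highest value in replicate 9. The part of these cells and genes in the changes below was not tested.

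By 12 months 20 members had fallen and 0 had risen in males, 40.8% of the set, on a background of 6.82% of all genes that fell, 3.02% that rose and 9.85% called. In females 0 passed at that age (0.231% of all genes, 0 members with DESeq2 and 1 with limma-voom). There 11 members and 2647 of the 18218 genes tested had an unadjusted p under 0.05 (edgeR). The difference between the sexes was not tested at that age. With CaAKG 0 members passed in males (0.0659% of all genes, 0 members with DESeq2 and with limma-voom). Here 2 members and 1216 of all genes tested had an unadjusted p under 0.05 (edgeR). Control males and females of batch 2 differed in 2 members (1.30% of all genes). Batch 2 differed from batch 1 in 5 members in 28-month females, 1 higher and 4 lower (6.75%, 13.0% and 19.8% of all genes). In 28-month males the batches differed in 0 members (1.02% of all genes, 2 members with DESeq2, 14 with limma-voom). Between these male groups 11 members and 2579 of all genes tested had an unadjusted p under 0.05 (edgeR).

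**Figure D1:**
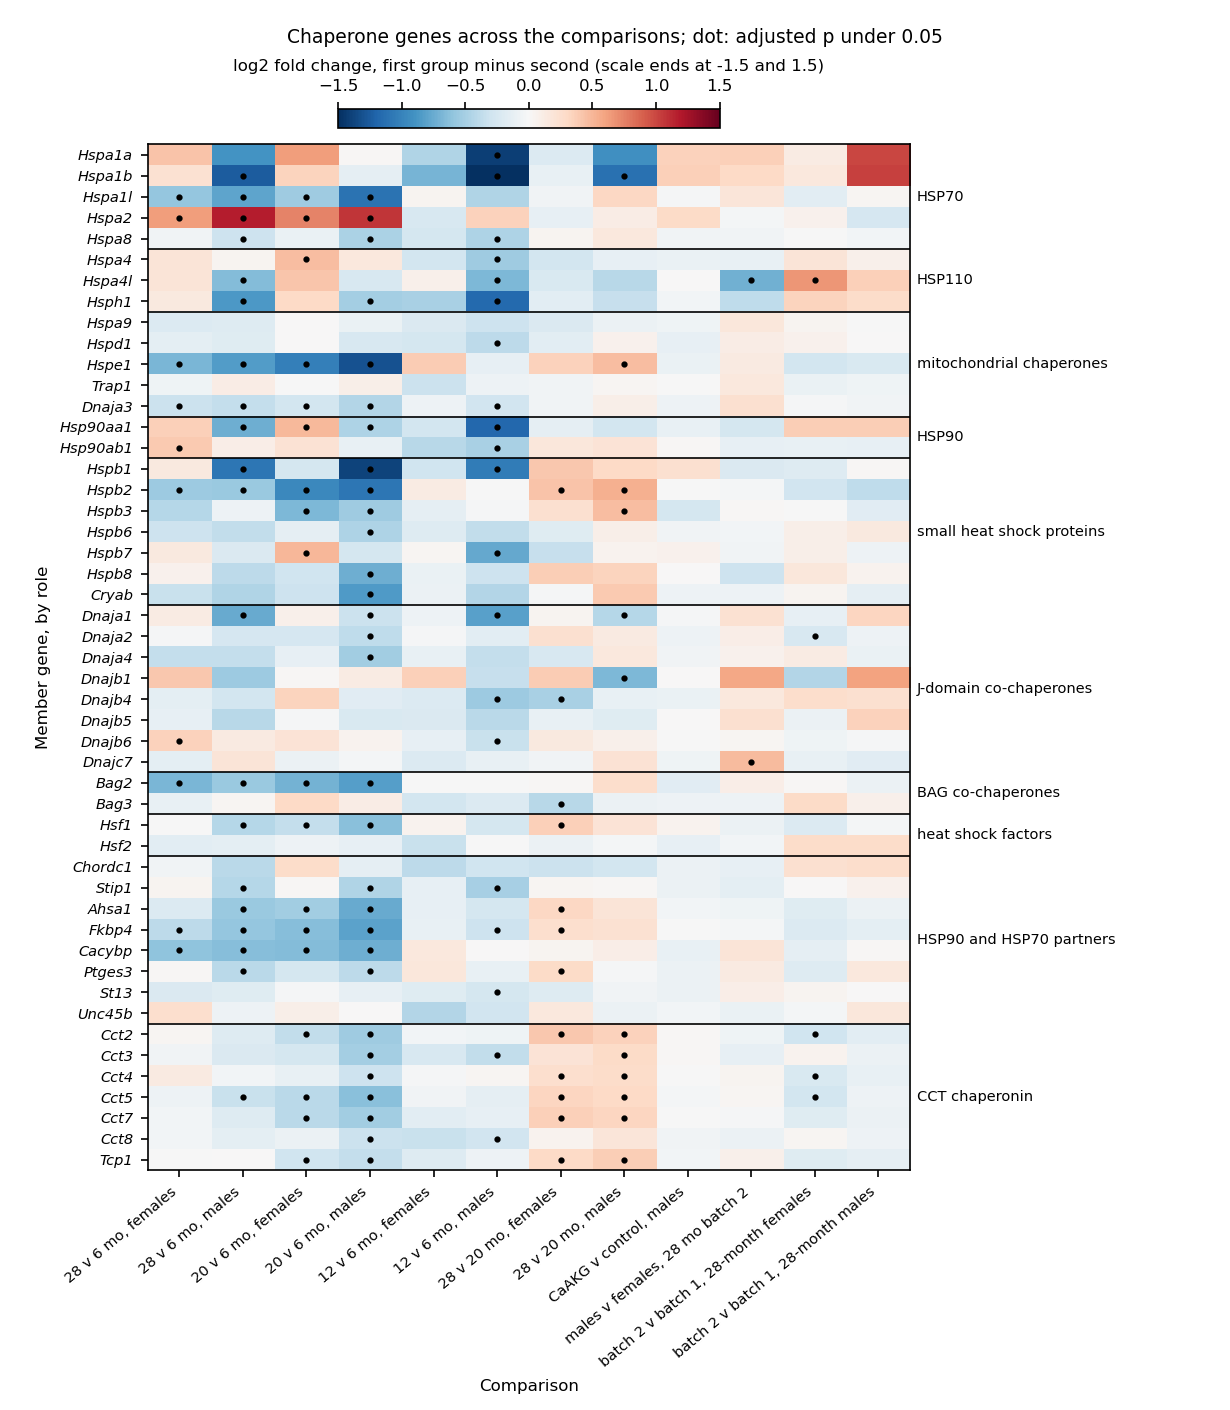
Log2 fold changes (colour, first group minus second) of the 49 chaperone genes, in rows grouped by role, for 12 comparisons in columns (mo, months; v, against). Dots mark an adjusted p under 0.05 (edgeR): of the 49 cells in a column, 29 are blue and dotted for 20 against 6 months in males, 20 for 12 against 6 and 19 for 28 against 6 months in males, and 14 for 20 against 6 months in females, and the CaAKG column holds no dot.

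Levels differed widely between the chaperones when taken per kilobase of the longest coding transcript. Cryab and Hspb6, small heat shock proteins of muscle, led with medians of 1973 and 1805 CPM per kilobase over the 77 replicates. They were followed by Hspb7, a small heat shock protein of striated muscle that binds filamin C, at 728, by the constitutive HSP70 gene Hspa8 at 654, and by the constitutive HSP90 gene Hsp90ab1 at 578. The stress-inducible counterparts lay far lower, with 30.03 for Hsp90aa1, 25.6 for Hspa1a and 18.8 for Hspa1b. At the low end stood Dnajb1, the J-domain partner of inducible HSP70, at 4.26 and the HSP110 gene Hspa4l at 1.31. Every member was above 0 in every replicate.

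**Figure D2:**
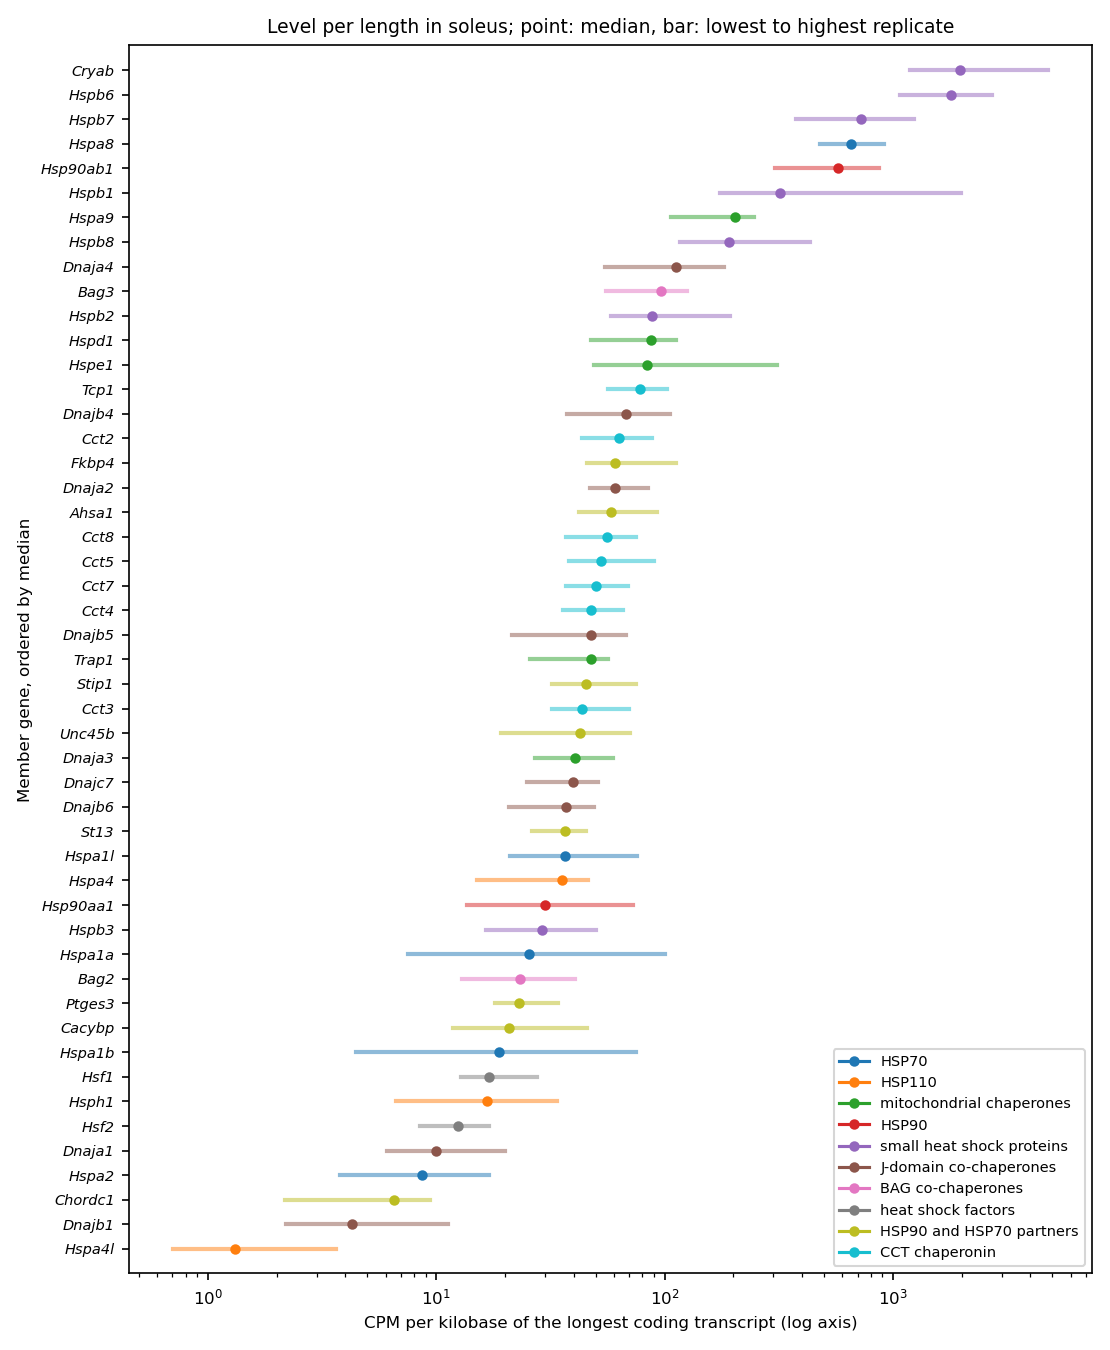
Level per length of the 49 genes over 77 replicates, on a log axis in CPM per kilobase of the longest coding transcript, with points for medians and bars from the lowest to the highest replicate. The small heat shock proteins Cryab and Hspb6 stand at the top and Hspa4l at the bottom, and the inducible Hspa1a and Hspa1b have long bars.

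Hspa1a and Hspa1b encode the inducible HSP70 and are neighbours on chromosome 17 (mm10). The regions before their starts are shown because they hold letters of the kind Hsf1 binds and show how alike the copies are: 247 of 250 bases are the same. In these and the sequences below, from RefSeq (GRCm38.p6), capitals mark pairs of inverted GAA units in the forms GAANNTTC or TTCNNGAA, which read the same on both strands, and longer runs of them. Each line ends at the base before the start of the transcript unless it is said otherwise.
Hspa1a, chr17:34972157-34972406, minus strand: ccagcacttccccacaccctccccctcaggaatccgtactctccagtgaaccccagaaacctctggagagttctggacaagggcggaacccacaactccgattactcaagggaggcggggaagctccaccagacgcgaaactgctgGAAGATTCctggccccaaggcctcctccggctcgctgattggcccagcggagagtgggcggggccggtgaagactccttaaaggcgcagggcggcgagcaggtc
Hspa1b, chr17:34959239-34959488, minus strand: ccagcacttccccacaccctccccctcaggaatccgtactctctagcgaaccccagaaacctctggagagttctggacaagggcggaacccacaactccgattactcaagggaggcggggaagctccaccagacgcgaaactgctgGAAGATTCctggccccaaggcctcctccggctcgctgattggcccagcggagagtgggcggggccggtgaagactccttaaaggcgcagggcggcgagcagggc
The single pair lies 96 bases before each start. Such pairs stood in 31.5% of the 54 windows found for 40 members (15 genes). Of 32851 windows of all 27025 genes they stood in 12.8% (3932 genes), GAANNTTC in 6.69% and TTCNNGAA in 7.17%. Windows of a gene can overlap and hold the same letters, and Hspd1 and Hspe1 share a stretch, so windows are not separate observations. The windows of Dnajb1 and Bag3 hold no such pair. A match is a matter of letters only, and no match says nothing about binding elsewhere. No entry was found for Hspa8, Hspa9, Hsp90aa1, Hsp90ab1, Hspb2, Cryab, Hsf1, St13 and Cct4.

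Further windows with such letters are shown for members described below: Hsph1, Hspb1 and Dnaja1. Also shown is the stretch of 215 bases between the start site of Hspe1 and a facing start site of Hspd1. Hspe1 and Hspd1 encode the cochaperonin and chaperonin of the mitochondrial matrix.
Hsph1, chr5:149636337-149636586, minus strand: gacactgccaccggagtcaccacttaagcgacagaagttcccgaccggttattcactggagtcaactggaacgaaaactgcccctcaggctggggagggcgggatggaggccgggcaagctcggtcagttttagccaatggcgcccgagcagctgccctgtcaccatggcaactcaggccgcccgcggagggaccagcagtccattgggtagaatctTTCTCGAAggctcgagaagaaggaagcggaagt
Hspb1, chr5:135887669-135887918, plus strand: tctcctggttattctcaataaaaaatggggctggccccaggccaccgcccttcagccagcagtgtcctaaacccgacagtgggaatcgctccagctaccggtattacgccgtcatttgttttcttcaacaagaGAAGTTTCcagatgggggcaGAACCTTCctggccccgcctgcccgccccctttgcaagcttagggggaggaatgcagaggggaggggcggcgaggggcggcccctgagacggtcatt
Dnaja1, chr4:40722218-40722467, plus strand: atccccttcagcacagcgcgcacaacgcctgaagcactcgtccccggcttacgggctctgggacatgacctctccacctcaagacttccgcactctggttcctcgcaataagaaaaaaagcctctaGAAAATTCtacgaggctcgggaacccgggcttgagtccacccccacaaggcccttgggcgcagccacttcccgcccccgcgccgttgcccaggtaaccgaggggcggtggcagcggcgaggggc
Hspe1 and Hspd1, chr1:55087933-55088147, plus strand as for Hspe1: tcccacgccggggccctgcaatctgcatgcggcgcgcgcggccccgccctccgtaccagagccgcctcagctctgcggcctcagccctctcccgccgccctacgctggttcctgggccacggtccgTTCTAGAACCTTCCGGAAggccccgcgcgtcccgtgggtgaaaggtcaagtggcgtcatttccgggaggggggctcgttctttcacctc
In Hspb1 there are 2 separate pairs. The Hspe1 and Hspd1 stretch holds a run of alternating units in which 3 pairs and 2 triplets overlap. Triplets (GAA, TTC and GAA, or their reverse, each 2 bases apart) stood in 0.466% of all windows and, among members, in those of Dnajb6, Hspd1 and Hspe1. For Hsph1 and Dnaja1, which have several starts, the window farthest upstream is given. The other windows of Dnaja1 (chr4:40722672-40722921 and chr4:40722680-40722929) hold no such pair and are not shown. Hspd1 has another start, farther upstream, whose window (chr1:55088244-55088493) holds no such pair and is not shown.

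Hspa1b varied widely between mice of the same group. In females it was at 62.2, 42.4, 24.4 and 52.8 CPM in the 4 libraries at 6 months, at 17.2 to 50.4 (median 20.3) at 12, 49.2 to 74.6 (median 52.9) at 20 and 33.7 to 83.8 (median 53.9) at 28 months. In males it was at 29.0 to 209.9 (median 64.8) at 6 months, 12.5 to 44.7 (median 24.0) at 12 and 33.7 to 167 (median 55.4) at 20 months, and at 36.6, 52.5, 25.6, 37.5 and 27.9 in the 5 libraries at 28 months. The 12-month groups were the lowest of each sex and overlapped the 6-month groups, and the 6-month male group reached its highest value in replicate 1. Hspa1b fell in males from 6 to 12 months, at -1.76 (SE 0.39, adjusted p = 0.0019) on the log2 scale, and from 6 to 28 months, at -1.25 (SE 0.40, adjusted p = 0.025). The latter was lost without 28-month male replicate 13 or 15 or 6-month male replicate 1 (-1.19 to -0.79, adjusted p = 0.055 to 0.17). It was also lower at 28 than at 20 months in males, at -1.11 (SE 0.38, adjusted p = 0.031), a call lost without 28-month male replicate 11, 13, 14 or 15 or 20-month male replicate 1 or 5 (-1.13 to -0.89, adjusted p = 0.054 to 0.097). In females no age contrast of Hspa1b passed.

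Hspa1a gave fewer calls. It was at 71.6, 65.3, 32.3 and 68.02 CPM in 6-month females, 28.3 to 79.0 (median 37.0) at 12, 72.2 to 133 (median 82.6) at 20 and 51.1 to 133 (median 78.9) at 28 months. In males the values were 51.1 to 227 (median 82.1) at 6 months, 22.2 to 76.3 (median 33.3) at 12, 42.7 to 235 (median 72.3) at 20 and 51.7, 73.3, 41.5, 67.4 and 45.3 at 28 months. The lowest 6-month female was replicate 3, and all 20-month females lay above all 6-month females, a difference of 0.63 (SE 0.40, adjusted p = 0.24) that did not pass. Hspa1a fell from 6 to 12 months in males, at -1.41 (SE 0.36, adjusted p = 0.0072), but not without 6-month replicate 1 (-1.02, adjusted p = 0.066). Reads of these near-identical genes are split by estimate, so the split is uncertain. Counted together as 1 gene they were at -1.55 for 12 against 6 months in males, -1.05 for 28 against 6 and -0.997 for 28 against 20 months, each past the threshold.

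Hspa8, the constitutive HSP70 and by level per length the most abundant HSP70 transcript, changed less. It was at 1871, 1797, 1256 and 1802 CPM in 6-month females, 1154 to 1654 (median 1444) at 12, 1513 to 1703 (median 1559) at 20 and 1148 to 2008 (median 1691) at 28 months. Male values were 1791 to 2184 (median 1963) at 6 months, 1222 to 1698 (median 1427) at 12, 1222 to 1657 (median 1415) at 20 and 1394, 1506, 1716, 1687 and 1668 at 28 months. Every 6-month male lay above every older male of batch 1, while the female groups overlapped. Hspa8 fell in males at 12 months by 0.46 on the log2 scale, at 20 months by 0.48 and at 28 months by 0.31 (edgeR adjusted p = 0.0029, 2.7e-05 and 0.044). The last was lost without 28-month male replicate 11, 14 or 15 or 6-month male replicate 2 or 6 (-0.33 to -0.26, adjusted p = 0.057 to 0.14), and with length and GC offsets (-0.37).

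The remaining HSP70 genes moved in opposite directions with age, in both sexes. Hspa2, the HSP70 best known from spermatogenesis, was at 14.6, 16.0, 15.1 and 12.4 CPM in 6-month females and 19.2 to 26.8 (median 22.8) at 28 months, with 21.6 to 29.7 (median 23.3) at 20 months. In males the level was 11.1 to 13.8 (median 11.6) at 6 months, 18.8 to 33.6 (median 24.1) at 20 and 19.9, 25.6, 32.9, 30.02 and 27.96 at 28 months. No 20- or 28-month mouse of batch 1 overlapped the 6-month mice of its sex. Hspa2 rose at 28 months by 0.62 in females and 1.18 in males (edgeR adjusted p = 0.009 and 1.8e-06), and at 20 months by 0.74 and 1.07. It was the only member that rose in all 4 of these contrasts. Hspa1l, a constitutive HSP70 gene next to Hspa1a, fell in the same 4: by 0.58 and 0.79 at 28 months and by 0.54 and 1.11 at 20 months (females, then males). No group pair overlapped. With length and GC offsets neither passed at 28 months in females (0.52 for Hspa2 and -0.65 for Hspa1l), nor did Hspa1l at 20 months in females (-0.46). The female call of Hspa1l at 28 months was also lost without 28-month female replicate 8 or 6-month female replicate 2 or 3 (-0.56 to -0.48, adjusted p = 0.058 to 0.067).

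Among the HSP110 genes, nucleotide exchange factors of HSP70, Hsph1 fell the most in males. It was at 74.6, 52.8, 36.9 and 64.3 CPM in 6-month females and at 29.5 to 64.6 (median 38.0) at 12, 63.6 to 79.3 (median 70.6) at 20 and 43.6 to 91.0 (median 64.1) at 28 months. In males the values were 72.6 to 128 (median 86.5) at 6, 25.3 to 73.9 (median 36.7) at 12, 56.4 to 81.8 (median 64.2) at 20 and 36.7, 42.9, 48.9, 59.02 and 64.7 at 28 months. All 5 males of 28 months lay below all 6-month males, and at 12 months only replicate 3, a library against its sex label, reached the 6-month range. Hsph1 fell in males by 1.17 at 12 months, 0.51 at 20 and 0.86 at 28 months (edgeR adjusted p = 6.4e-05, 0.0099 and 0.0019). The length and GC offsets moved the 20-month value to -0.81. The female contrasts did not pass, with -0.49, 0.30 and 0.15, and the interaction at 28 months was -1.004 (SE 0.29, adjusted p = 0.085).

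Hspa4 and Hspa4l, the other HSP110 genes, each fell at 12 months in males, by 0.54 and 0.67, calls that were lost without 12-month male replicate 2 (-0.45, adjusted p = 0.053) or with length and GC offsets (-0.50) for the former and without 12-month male replicate 2 (-0.59, adjusted p = 0.051) for the latter. Hspa4 was at 137 to 182 (median 146) CPM in 6-month males and 72.5 to 164 (median 99.6) at 12 months, and the groups overlapped through 12-month replicate 3. In females Hspa4 was at 168, 148, 84.0 and 149.8 at 6 months and 171 to 213 (median 189) at 20 months. The groups did not overlap and the change of 0.47 passed, but not without 6-month replicate 3, the lowest (0.29, adjusted p = 0.23), and the sign turned with length and GC offsets (-0.020). Hspa4l was at 11.2 to 21.1 (median 14.7) CPM in 6-month males and 8.33, 8.25, 10.3, 10.6 and 10.3 in 28-month males, without overlap, a fall of 0.66 (edgeR adjusted p = 0.012) that the offsets moved to -1.03. In batch 2 it was lower in males, 9.43 to 18.6 (median 11.9) CPM, than in females, 11.5 to 34.4 (median 16.5), with -0.72 (SE 0.15, adjusted p = 0.0044). Female replicate 1 held the highest value, and without it the difference was -0.53 (adjusted p = 0.066).

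Hsp90aa1, the inducible HSP90, also fell in males. It was at 104 to 239.9 (median 115) CPM in males at 6 months, at 44.9 to 103 (median 54.9) at 12, 84.5 to 132 (median 97.6) at 20 and 78.7, 79.9, 72.1, 85.8 and 90.5 at 28 months. In females it was at 98.5, 76.1, 47.2 and 83.5 at 6 months, 47.4 to 84.5 (median 63.8) at 12, 95.4 to 122.8 (median 106) at 20 and 69.8 to 134 (median 98.5) at 28 months. In males the 12- and 28-month groups lay wholly below the 6-month group, whose replicate 1 at 239.9 CPM stood far above the rest. In females the oldest groups tended to hold the higher values, with overlap. Hsp90aa1 fell in males by 1.17 at 12, 0.46 at 20 and 0.74 at 28 months (edgeR adjusted p = 3.4e-05, 0.015 and 0.0043). It rose at 20 months in females by 0.49 (edgeR adjusted p = 0.048). The male call at 20 months was lost without 6-month male replicate 1 (-0.26, adjusted p = 0.18), and the female one without 20-month female replicate 1, 4 or 6 or 6-month female replicate 2, 3 or 4 (0.53 to 0.32, adjusted p = 0.059 to 0.3) and with length and GC offsets (0.32). The interaction of sex and age was -1.09 (SE 0.27, adjusted p = 0.0501) and lay just outside the threshold.

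Hsp90ab1, the constitutive HSP90, changed less. It was at 1557, 1402, 875 and 1436 CPM in 6-month females and 1316 to 2191 (median 1780) in 28-month females, against 1200 to 1887 (median 1432) and 1249, 1394, 1773, 1666 and 1925 in males. Both pairs of groups overlapped. The female change of 0.39 (SE 0.14, adjusted p = 0.047) passed narrowly and was lost without 28-month female replicate 9, 12 or 13 or 6-month female replicate 2, 3 or 4 (0.44 to 0.26, adjusted p = 0.0502 to 0.29), and with length and GC offsets (0.30). At 12 months it fell in males by 0.49 (edgeR adjusted p = 0.0083), to 829.8 to 1333 (median 1081) CPM, a call also lost with the offsets (-0.54).

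**Figure D3:**
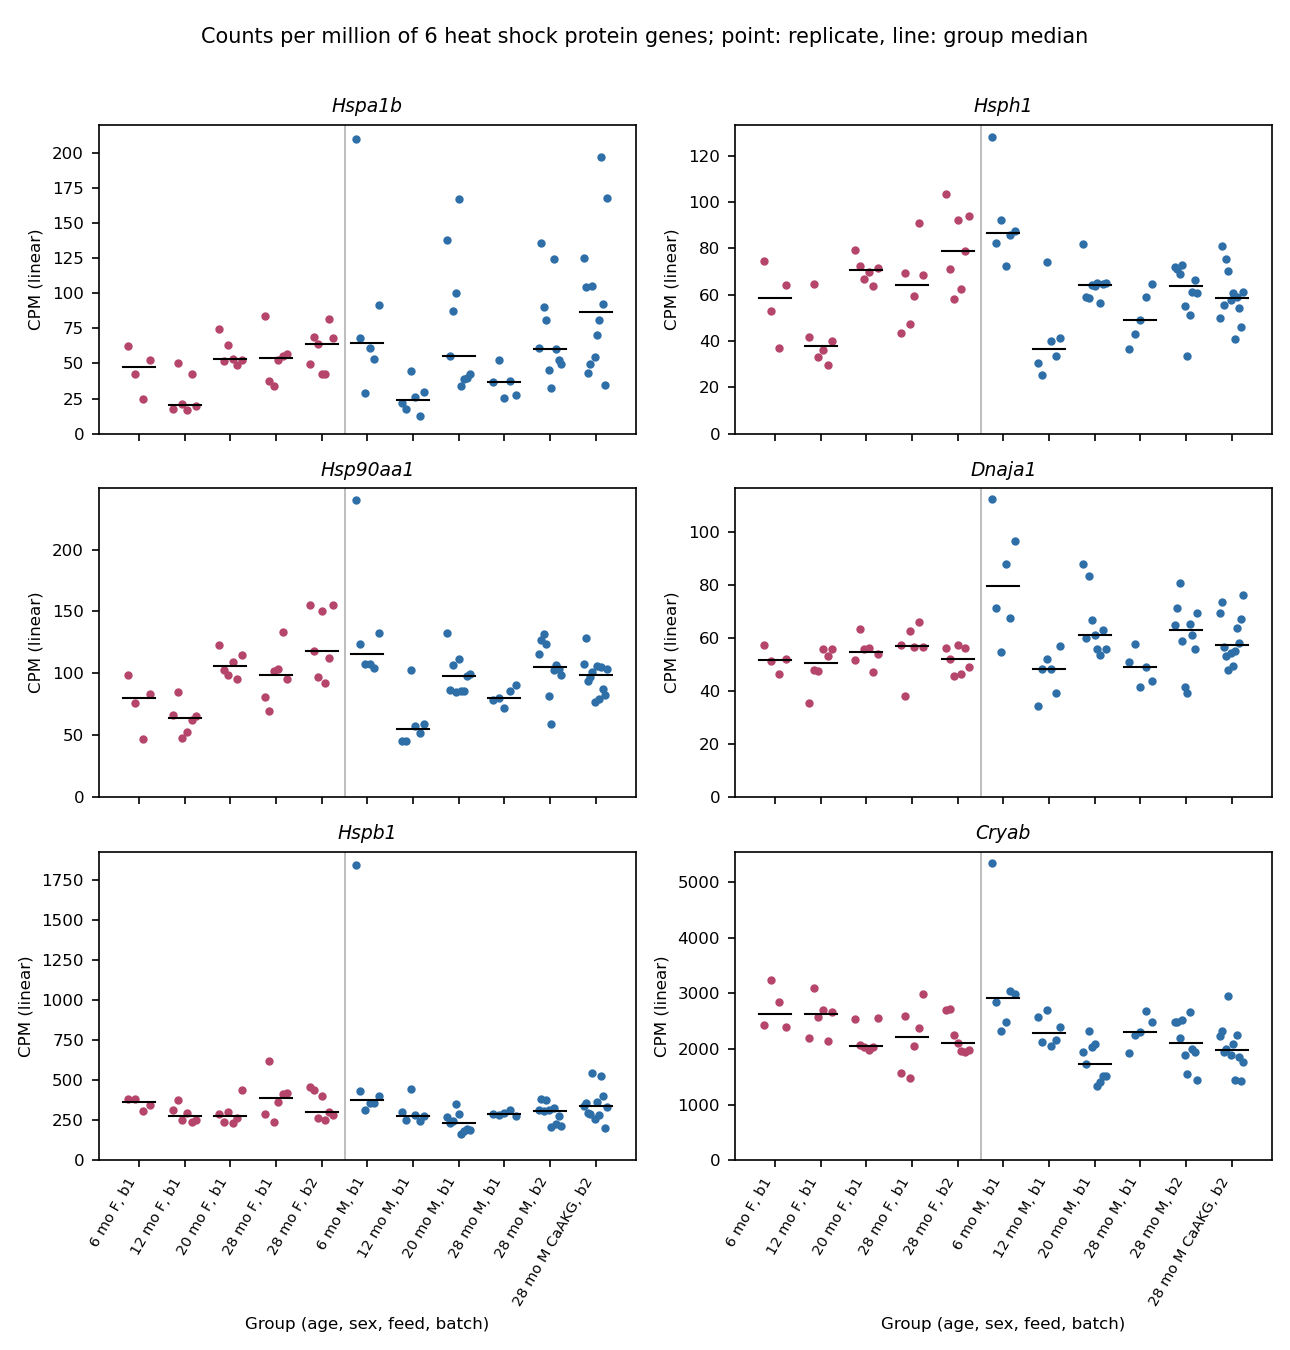
CPM of Hspa1b, Hsph1, Hsp90aa1, Dnaja1, Hspb1 and Cryab (linear axes) in 11 groups by age (mo, months), sex (F, M), feed and batch (b1, b2), with females left of the line, a point per replicate and a line at each median. In 6-month males 1 replicate stands above the rest for Hspb1 (1846 CPM), Cryab (5351 CPM), Hsp90aa1 and Hsph1, and the 12-month males are low for Hspa1b, Hsph1 and Hsp90aa1.

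Of the 8 partner proteins of HSP90 and HSP70, 2 fell from 6 to 28 months in females and 5 in males (9.04% and 9.38% of all genes), and 3 and 5 at 20 months (17.8% and 22%). Fkbp4, an immunophilin of steroid receptor complexes, was at 197, 196, 185 and 202 CPM in 6-month females, 113.2 to 131 (median 127) at 20 and 118 to 169 (median 151) at 28 months. The males had 174 to 249 (median 209) at 6 months, 107 to 144 (median 115) at 20 and 136, 137, 134, 148 and 146 at 28 months. Neither older group overlapped the 6-month group in either sex. Fkbp4 fell by 0.39 and 0.58 at 28 months and by 0.64 and 0.81 at 20 months (females, then males, edgeR adjusted p = 0.0055, 5.5e-05, 5.2e-07 and 1.6e-12). Under the length and GC offsets it was -0.45 in 28-month and -0.46 in 20-month females and passed in neither.

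Cacybp, a partner of Hsp90 and of the ubiquitin ligase Siah1, fell by similar amounts in the same contrasts, by 0.60 and 0.64 at 28 months and by 0.65 and 0.74 at 20 months. It went from 53.0, 65.5, 62.4 and 78.7 CPM in 6-month females to 38.9 to 52.8 (median 41.3) at 28 months, and from 60.1 to 78.5 (median 67.7) to 43.7, 46.8, 43.4, 43.6 and 43.2 in males, without overlap. Ahsa1, which activates the ATPase of HSP90, went from 110.8 to 128 (median 120.1) CPM in 6-month males to 65.2 to 79.2 (median 71.3) at 20 and 80.1, 80.7, 81.8, 79.6 and 86.4 at 28 months, all lower and without overlap. It fell by 0.56 in 28-month males and by 0.52 and 0.76 at 20 months, while 28-month females stood at -0.21 (SE 0.10, adjusted p = 0.14). The offsets gave 20-month values of -0.15 in females, which did not pass (edgeR adjusted p = 0.6), and -0.43 in males, which did.

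Stip1, the adaptor between HSP70 and HSP90, fell in males by 0.49 at 12, 0.45 at 20 and 0.43 at 28 months, from 109 to 159 (median 114) CPM at 6 months to 72.6 to 108 (median 83.1) at 12, 81.8 to 98.5 (median 89.6) at 20 and 73.0, 88.1, 93.2, 98.7 and 97.4 at 28 months. None of the older male groups overlapped the 6-month group. The length and GC offsets gave -0.38 at 20 and -0.44 at 28 months, neither past the threshold. In females the log2 fold changes were -0.12, 0.017 and 0.043, and the interaction at 28 months was -0.47 (SE 0.17, adjusted p = 0.2). Ptges3, the p23 co-chaperone of HSP90, fell in males by 0.41 at 28 and 0.39 at 20 months, and both calls were lost with the offsets (-0.38 and -0.33). Chordc1 and St13, partners of HSP90 and HSP70, and Unc45b, the myosin chaperone of striated muscle, passed in no 20- or 28-month contrast, and St13 fell by 0.26 in 12-month males, a call lost without 12-month male replicate 1, 2 or 4 or 6-month male replicate 1, 3 or 6 (-0.28 to -0.19, adjusted p = 0.051 to 0.2) or with the offsets (-0.35). Unc45b was at 186, 166, 132 and 190.0 CPM in 6-month females and 132 to 292 (median 204) at 28 months, and at 148 to 198 (median 168) and 127, 156, 177, 158 and 195 in males, so the groups overlapped.

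Of the 7 small heat shock proteins 6 fell and 0 rose at 20 months in males (22% and 22.6% of all genes), and 2 fell and 1 rose in females (17.8% and 18.2%). Of the 6 male falls 3 passed with length and GC offsets (Hspb1, Hspb2 and Hspb8) and none of the female calls. Cryab, which binds desmin and titin in muscle, was at 2332 to 5351 (median 2919) CPM in 6-month males, 2051 to 2700 (median 2286) at 12, 1333 to 2325 (median 1728) at 20 and 1936, 2249, 2301, 2680 and 2485 at 28 months. In females it was at 2432, 3242, 2845 and 2399 at 6 months, 2149 to 3094 (median 2622) at 12, 1991 to 2564 (median 2058) at 20 and 1478 to 2992 (median 2212) at 28 months. Only 20-month males were wholly below the 6-month group of their sex, and 6-month male replicate 1 stood far above its group. Cryab fell by 0.84 at 20 months in males (edgeR adjusted p = 1.4e-06) and stood at -0.67 without that replicate. Length and GC offsets moved it to -0.39, which did not pass. At 28 months it was -0.45 (SE 0.17, adjusted p = 0.063) in males and -0.33 (SE 0.18, adjusted p = 0.19) in females.

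Hspb1, the HSP27 gene, rested in part on the same library. It was at 314 to 1846 (median 379) CPM in 6-month males and at 246 to 443 (median 278) at 12, 162 to 354 (median 232) at 20 and 286, 284, 294, 312 and 276 at 28 months. In females it was at 381, 380.3, 309.8 and 342 at 6 months, 238 to 378 (median 274) at 12, 229.9 to 439 (median 278) at 20 and 239 to 619 (median 389) at 28 months. The 5 other 6-month males lay between 313.9 and 430.1 CPM, against 1846 in replicate 1. The 28-month males lay wholly below the 6-month males, and the other groups overlapped. Hspb1 fell in males by 1.05 at 12, 1.39 at 20 and 1.09 at 28 months. Without replicate 1 the log2 fold changes were -0.32, -0.70 and -0.40, with edgeR adjusted p = 0.39, 0.00096 and 0.21. Under the offsets the 20-month value was -0.86 and passed, and the 28-month value -0.91 did not (edgeR adjusted p = 0.051). In replicate 1 the immediate early genes, which respond to stress within minutes, summed to 635 CPM, against a group median of 329 CPM, and neutrophil markers to 50.9 CPM, against 2.37 CPM. Their part in the result was not tested.

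Hspb2, whose annotated span overlaps that of Cryab on the opposite strand and which is expressed with its partner Hspb3 in muscle, fell more evenly. In females Hspb2 was at 88.4, 122, 136 and 110.8 CPM at 6 months, 91.9 to 149 (median 130.4) at 12, 52.4 to 64.7 (median 58.1) at 20 and 59.1 to 102 (median 74.1) at 28 months. In males it was at 104 to 139.9 (median 115) at 6 months, 91.0 to 146 (median 118) at 12, 44.8 to 79.8 (median 52.1) at 20 and 80.8, 81.3, 75.9, 80.7 and 88.2 at 28 months. The 20-month groups lay wholly below the 6-month groups, the 28-month males too, and the 28-month females overlapped them. Hspb2 fell by 0.97 and 1.08 at 20 months (females, then males, edgeR adjusted p = 4.7e-07 and 5.5e-11) and by 0.55 and 0.55 at 28 months. At 28 months the female call was lost without 6-month female replicate 3 (-0.43, adjusted p = 0.092). The length and GC offsets gave -0.31 and -0.50 at 20 months, of which only the male value passed, and -0.33 and -0.34 at 28 months, which did not pass. Hspb3 fell at 20 months by 0.67 and 0.53, and passed in neither sex at 28 months. With the offsets its 20-month values were -0.17 and -0.069 (edgeR adjusted p = 0.63 and 0.79), so both calls were lost.

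Hspb6, Hspb7 and Hspb8 completed the group. Hspb6, a small heat shock protein of muscle also called HSP20, fell at 20 months in males by 0.46, from 2545 to 3153 (median 2886) to 1655 to 2630 (median 2049) CPM, with overlap. The length and GC offsets gave -0.069, which did not pass. Hspb7 was at 1777, 1882, 1695 and 1527 CPM in 6-month females and 2114 to 2991 (median 2260) at 20 months, without overlap, and at 1964 to 3423 (median 2266) and 1042 to 2016 (median 1394) in males of 6 and 12 months. It rose in 20-month females by 0.50 (edgeR adjusted p = 0.046), a call lost without 20-month female replicate 1, 4 or 6 or 6-month female replicate 1, 2, 3 or 4 (0.53 to 0.44, adjusted p = 0.063 to 0.13) and with the offsets (0.59, adjusted p = 0.11). It fell in 12-month males by 0.77 (edgeR adjusted p = 0.0029). Hspb8, the partner of Bag3 in selective autophagy, fell in 20-month males by 0.73.

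Of the 8 J-domain co-chaperones, Dnaja1 was the most often called in males. Dnaja1, a farnesylated J-domain protein of the cytosol, was at 54.7 to 112 (median 79.4) CPM in 6-month males, 34.3 to 56.9 (median 48.1) at 12, 53.3 to 87.7 (median 60.9) at 20 and 50.7, 57.7, 41.5, 48.9 and 43.7 at 28 months. In females it was at 57.4, 51.3, 46.5 and 51.8 at 6 months, 35.4 to 55.8 (median 50.6) at 12, 47.2 to 63.3 (median 54.7) at 20 and 38.2 to 66.1 (median 57.01) at 28 months. The 6-month males were the highest group. They overlapped the 12- and 28-month males through replicate 3 alone, a library against its sex label, at 54.7 CPM, and the 20-month males more widely. Dnaja1 fell in males by 0.81 at 12 months, 0.32 at 20 and 0.75 at 28 months (edgeR adjusted p = 0.00021, 0.035 and 0.00048). The 20-month call was lost without 20-month male replicate 2, 6, 7 or 9 or 6-month male replicate 1 or 6 (-0.31 to -0.25, adjusted p = 0.054 to 0.12), while with length and GC offsets that fall was larger, at -0.997 (edgeR adjusted p = 4.3e-08). In females the values were -0.071, 0.077 and 0.12, and the interaction at 28 months was -0.87 (SE 0.22, adjusted p = 0.054).

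Dnajb1, the main J-domain partner of inducible HSP70, was low throughout. It was at 10.5, 11.6, 12.1 and 8.84 CPM in 6-month females and 9.75 to 24.2 (median 12.3) at 28 months, and at 7.68 to 26.1 (median 14.3), 11.2 to 25.5 (median 15.8) and 12.8, 11.7, 8.40, 9.62 and 9.10 in males of 6, 20 and 28 months. All of these groups overlapped within a sex. It passed only as lower at 28 than at 20 months in males, at -0.67 (SE 0.23, adjusted p = 0.036), a call lost without 28-month male replicate 13, 14 or 15 or 20-month male replicate 1 or 2 (-0.65 to -0.57, adjusted p = 0.052 to 0.1). Dnaja2 and Dnaja4, J-domain proteins of the cytosol, fell in 20-month males by 0.39 and 0.52. Dnajb4 and Dnajb6 fell in 12-month males by 0.55 and 0.33. These calls were lost without 12-month male replicate 1, 2 or 5 or 6-month male replicate 1 or 6 (-0.52 to -0.45, adjusted p = 0.053 to 0.097) and without 12-month male replicate 1, 2, 5 or 6 or 6-month male replicate 2, 3 or 4 (-0.33 to -0.27, adjusted p = 0.06 to 0.14), the latter also with the offsets (-0.37). Dnajb6, whose mutation causes a limb-girdle muscular dystrophy, rose in 28-month females by 0.34, a call lost without 28-month female replicate 9, 12 or 13 or 6-month female replicate 1, 3 or 4 (0.38 to 0.26, adjusted p = 0.0503 to 0.21) and with the offsets (0.23). Dnajb5 passed in no comparison.

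Dnajc7, a J-domain protein that binds both HSP70 and HSP90, had the smaller p of the 2 members that differed between the sexes. In batch 2 it was at 58.4 to 84.4 (median 69.0) CPM in females and 90.2 to 108 (median 98.8) CPM in males, with no overlap. It was higher in males by 0.48 (SE 0.074, adjusted p = 2.8e-05). Under the length and GC offsets it was 0.43 and did not pass. In batch 1 at 28 months it was at 68.1 to 94.7 (median 74.99) CPM in females and 108, 109.6, 117, 119 and 107 CPM in males, again without overlap, and at 6 months at 80.7, 93.4, 85.4 and 83.1 and 84.2 to 109.8 (median 99.5) CPM, with overlap. These batch 1 sex differences were not tested, nor was the part of the fast fibre markers, which also differed between the batch 2 sexes.

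The BAG co-chaperones parted. Bag2, which inhibits the ubiquitin ligase Stub1, was at 54.1, 67.2, 71.1 and 58.5 CPM in 6-month females, 39.5 to 75.7 (median 66.8) at 12, 33.5 to 42.9 (median 38.1) at 20 and 26.0 to 51.2 (median 40.1) at 28 months. Male values were 54.1 to 73.9 (median 67.8) at 6 months, 56.03 to 73.95 (median 66.3) at 12, 30.5 to 42.7 (median 37.0) at 20 and 41.5, 42.4, 44.7, 51.8 and 43.98 at 28 months. Mice of 20 and 28 months were below all 6-month mice of their sex, and 12-month mice were not. Bag2 fell by 0.69 and 0.56 at 28 months and by 0.71 and 0.82 at 20 months (females, then males, edgeR adjusted p = 0.002, 0.0083, 0.00023 and 2.4e-07), and with length and GC offsets it stayed past the threshold in all 4, at -0.68, -0.55, -0.53 and -0.69. Its female call at 28 months was lost in a fit of the 28- and 6-month females alone.

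Bag3, which guides damaged filamin to autophagy in muscle, was at 258, 254, 201 and 227 CPM in 6-month females, 269 to 312 (median 286) at 20 and 163 to 276 (median 213) at 28 months. In males the level was 205 to 317 (median 226) at 6 months, 228 to 298 (median 248) at 20 and 185, 255, 251, 263 and 247 at 28 months. The 20-month females were wholly above the 6-month females, a difference of 0.30 (SE 0.15, adjusted p = 0.11) that did not pass. Bag3 was lower at 28 than at 20 months in females, at -0.41 (SE 0.13, adjusted p = 0.014), and missed the threshold once libraries holding skin or marrow transcripts were left out (-0.21).

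Hsf1, the master regulator of the heat shock response, was itself lower in several older groups. It was at 41.96, 43.4, 45.5 and 40.3 CPM in 6-month females, 27.8 to 57.95 (median 46.0) at 12, 30.3 to 35.8 (median 33.9) at 20 and 31.4 to 55.2 (median 43.4) at 28 months. The males had 41.2 to 52.3 (median 49.8) at 6 months, 31.7 to 47.2 (median 38.7) at 12, 27.1 to 35.3 (median 31.4) at 20 and 35.5, 34.0, 34.0, 34.5 and 39.1 at 28 months. The 20-month groups of both sexes and the 28-month males lay wholly below the 6-month groups. Hsf1 fell by 0.36 and 0.63 at 20 months (females, then males) and by 0.43 in 28-month males (edgeR adjusted p = 0.012, 8.8e-08 and 0.0056), with 28-month females at -0.01 (SE 0.12, adjusted p = 0.98). With length and GC offsets the female value at 20 months was -0.11 and the male value at 28 months -0.42, neither past the threshold. The former call was also lost without 6-month female replicate 3 (-0.33, adjusted p = 0.052). Hsf2, a second heat shock factor, passed in no comparison.

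Among the mitochondrial chaperones Hspe1 fell and its partner Hspd1 did not in the contrasts with 20 and 28 months. The promoter stretch shown above lies before the start of Hspe1 and before a start of Hspd1, which has another. Hspe1, the cochaperonin HSP10, was at 83.8, 124.99, 117 and 113.03 CPM in 6-month females, 104 to 240.2 (median 128) at 12, 49 to 64.0 (median 52.6) at 20 and 52.5 to 90.9 (median 63.4) at 28 months. In males it was at 112 to 156 (median 126) at 6 months, 95.8 to 139 (median 119) at 12, 43.9 to 66.2 (median 48.7) at 20 and 72.9, 73.6, 67.2, 72.9 and 75.1 at 28 months. The 6- and 12-month mice formed a high range and the 20-month mice a low range without overlap in either sex, and the 28-month males lay between the 6- and 20-month males. The step falls between 12 and 20 months, where the supplier of the mice also changed. Hspe1 fell by 1.02 and 1.30 at 20 months and by 0.68 and 0.84 at 28 months (females, then males, edgeR adjusted p = 2.3e-07, 3.9e-13, 0.0019 and 0.00013). With length and GC offsets it passed in all 4, at -0.50, -0.83, -0.49 and -0.67. The female call of Hspe1 at 28 months was lost in a fit of the 28- and 6-month females alone.

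Hspd1, the chaperonin HSP60 whose ring Hspe1 caps, was at 242, 228, 165 and 225 CPM in 6-month females, 196 to 229.8 (median 218) at 20 and 159 to 245 (median 182) at 28 months. Male values were 234 to 271 (median 243) at 6 months, 194 to 224 (median 209) at 20 and 186, 221, 234, 229 and 220.2 at 28 months. The 20-month males lay wholly below the 6-month males, a difference of -0.24 (SE 0.11, adjusted p = 0.059) that just missed the threshold, and the female groups overlapped. The log2 fold changes at 28 months were -0.15 and -0.18 (females, then males), against those of Hspe1 above, and no test of the difference between the genes was made. Hspd1 fell in 12-month males, by 0.40 (edgeR adjusted p = 0.019), where Hspe1 was at -0.12. That call was lost without 12-month male replicate 1, 2 or 6 (-0.38 to -0.33, adjusted p = 0.058 to 0.088) and with length and GC offsets (-0.49). Dnaja3, the J-domain protein of mitochondria, fell by 0.33 and 0.36 at 28 months, 0.27 and 0.44 at 20 months and 0.28 in 12-month males. Of these, the female calls were lost without 28-month female replicate 11 or 6-month female replicate 3 (-0.32 to -0.26, adjusted p = 0.055 to 0.069) and without 20-month female replicate 1 or 6-month female replicate 3 (-0.28 to -0.25, adjusted p = 0.051 to 0.052) respectively, and the last without 12-month male replicate 1, 2 or 6 or 6-month male replicate 4 or 6 (-0.30 to -0.23, adjusted p = 0.053 to 0.13). Once the offsets were added only the 20-month male call passed, and the others were -0.42 and -0.45 at 28 months (females, then males), -0.30 in 20-month females and -0.34 in 12-month males. The mitochondrial HSP70 gene Hspa9 and the mitochondrial HSP90 gene Trap1 passed in no comparison.

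**Figure D4:**
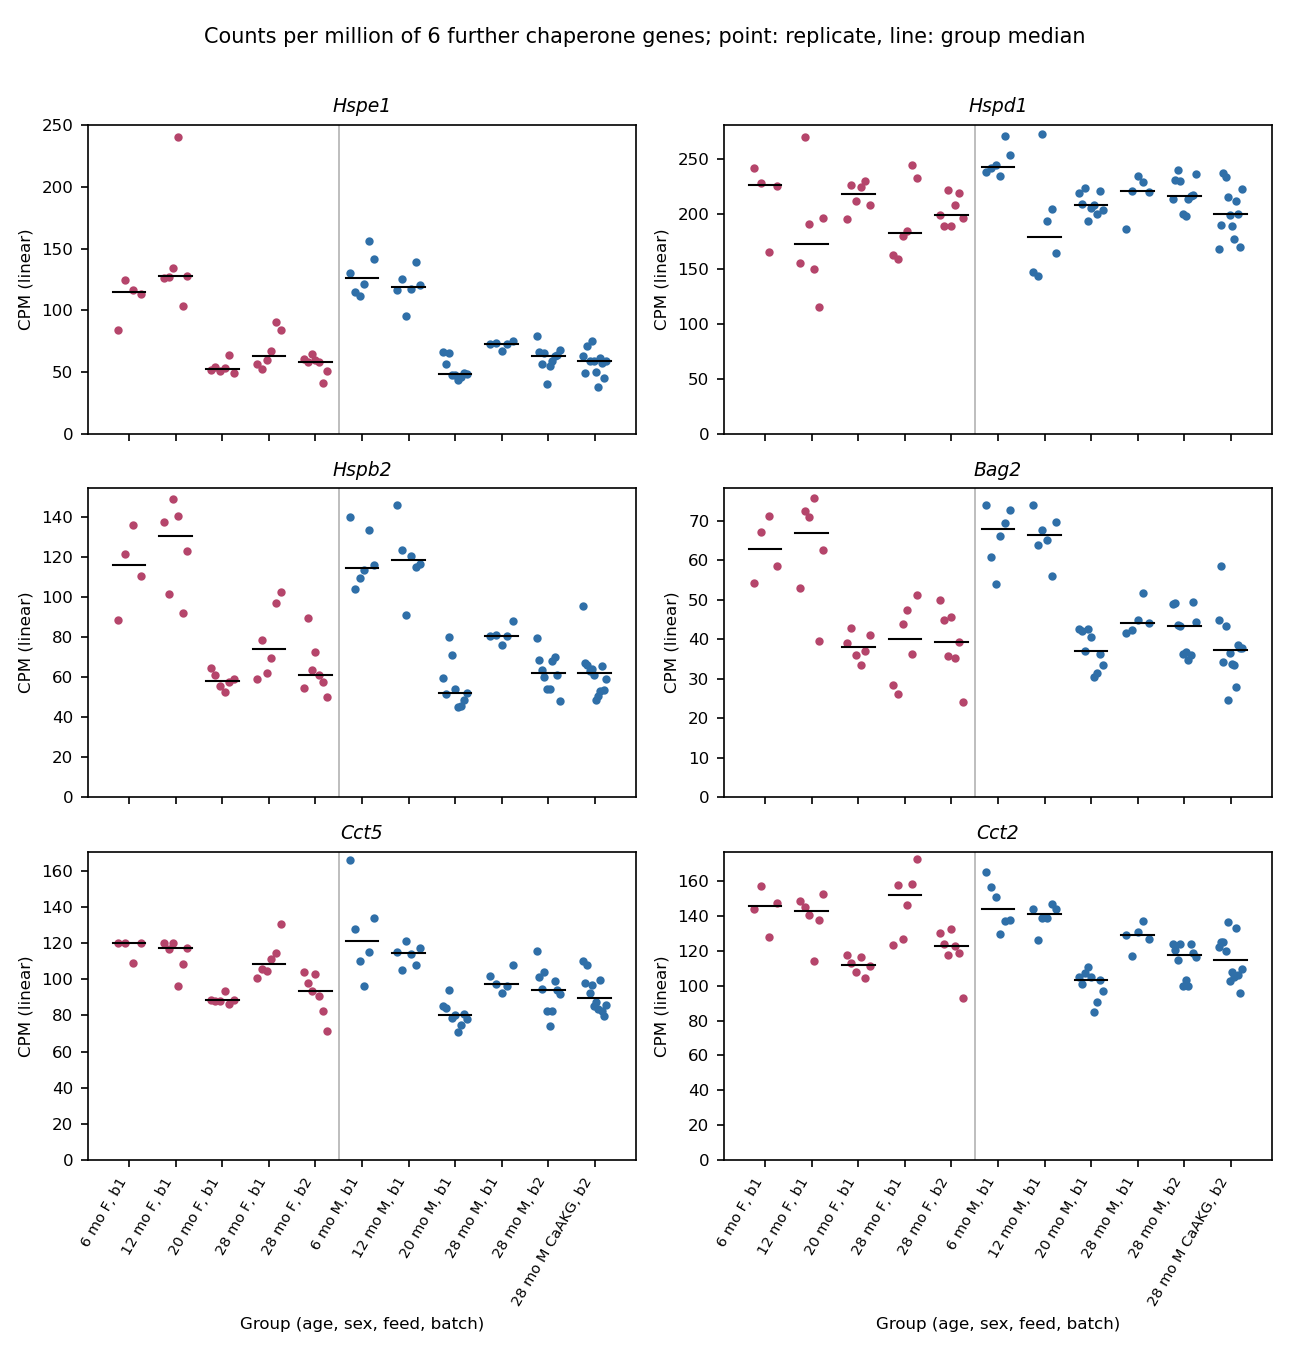
CPM of Hspe1, Hspd1, Hspb2, Bag2, Cct5 and Cct2 (linear axes) by group, laid out as in the plot of heat shock protein genes: mo, months; F and M, sexes; b1 and b2, batches; points are replicates and lines medians. For Hspe1, Hspb2 and Bag2 the medians at 6 and 12 months stand above those at 20 and 28 months in both sexes, while Hspd1 shows no such step.

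Transcripts of the CCT chaperonin, the ring that folds actin and tubulin, were lower at 20 than at 6 months for the subunits in the set. These were Cct2, Cct3, Cct4, Cct5, Cct7, Cct8 and Tcp1, and no other subunit was examined. All 7 fell in males (22% of all genes), with log2 fold changes from -0.63 for Cct5 to -0.31 for Cct4. In females 4 fell (Cct2, Cct5, Cct7 and Tcp1, 17.8% of all genes). The group's median was -0.51 in males and -0.30 in females, against 0.02 and 0.002 for all genes. From 20 to 28 months 5 subunits rose in females and 6 in males (17.3% and 8.25% of all genes), from the same 20-month libraries. At 28 against 6 months only Cct5 passed, in males, with -0.33 (SE 0.095, adjusted p = 0.01), and not with length and GC offsets (-0.32).

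Cct5 had its lowest median of batch 1 at 20 months in both sexes. In females it was at 119.8, 120.1, 109 and 120.3 CPM at 6 months, 96.5 to 120.1 (median 117) at 12, 86.5 to 93.3 (median 88.3) at 20 and 101 to 130.4 (median 108) at 28 months. In males the level was 96.4 to 166 (median 121) at 6 months, 105 to 121 (median 114) at 12, 70.8 to 93.9 (median 80.5) at 20 and 102, 97.6, 92.2, 96.4 and 108 at 28 months. The 20-month groups did not overlap the 6-month group of their sex. In females they did not overlap the 28-month group either, and in males 20-month replicate 3 (93.9 CPM) lay above the lowest 28-month replicate (92.2 CPM). Cct5 fell at 20 months by 0.40 and 0.63 (females, then males, edgeR adjusted p = 0.00077 and 1.2e-09) and rose from 20 to 28 months by 0.32 and 0.29.

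Cct2 gave the same picture. It was at 144, 157, 128 and 147 CPM in 6-month females, 104 to 117 (median 112) at 20 and 123.2 to 172 (median 152) at 28 months, and at 129 to 165 (median 144) at 6 months, 85.2 to 110.9 (median 104) at 20 and 129, 117, 131, 137 and 127 in males. The 20-month mice overlapped neither the 6-month nor the 28-month mice of batch 1. The changes from 20 to 28 months were 0.40 and 0.35 (edgeR adjusted p = 0.0002 and 0.0011). In batch 2, however, Cct2 was at 92.9 to 132 (median 122.9) CPM in 28-month females, lower than in batch 1 at -0.30 (SE 0.079, adjusted p = 0.006) on the log2 scale, and Cct4 and Cct5 were also lower there, by 0.23 and 0.27. The calls of the latter pair were lost without 28-month female batch 2 replicate 6 or 7 or 28-month female batch 1 replicate 9 (-0.20 to -0.17, adjusted p = 0.074 to 0.12) and without 28-month female batch 2 replicate 6 or 7 or 28-month female batch 1 replicate 13 (-0.23 to -0.22, adjusted p = 0.063 to 0.071), and with limma-voom or with length and GC offsets 0 members passed between the batches in females. With length and GC offsets 0 of the 7 subunits passed from 20 to 28 months in males, and in females 0 of the 5 calls remained, with 0.31 for Cct2 and 0.15 for Cct5. The falls from 6 to 20 months in males were called for all 7 subunits with the offsets, and in females for none of the 4.

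The 20 falls of 12-month males were, in order of the log2 fold change, led by Hspa1b, Hspa1a, Hsp90aa1, Hsph1 and Hspb1, followed by Dnaja1, Hspb7, Hspa4l, Dnajb4 and Hspa4. The others that fell were Stip1, Hsp90ab1, Hspa8, Hspd1, Cct3, Dnajb6, Fkbp4, Cct8, Dnaja3 and St13. In females of 12 months 40 of the 49 values were below 0 without any passing, and the lowest was Hspa1b at -0.69 (SE 0.42, adjusted p = 0.43). The median was -0.16, against 0.003 for all genes. The share of all genes below 0 is not given, and the members share libraries and scaling, so the 40 are not separate observations. Of the male calls 8 were kept without each single library in turn, and without the doubted libraries 30 members fell. Without 6-month replicate 1 Hspa1a, Hspb1, Dnajb4, St13, Cct3 and Cct8 did not pass. A fit of the 6- and 12-month males alone called 9 falls, and length and GC offsets left 12, without Hspa4, Hspd1, Dnaja3, Hsp90ab1, Dnajb6, Fkbp4, St13 and Cct8.

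With CaAKG no chaperone gene passed the threshold against control males (12 mice against 10). An unadjusted p under 0.05 (edgeR) was held by 2 of them and by 1216 of the 18218 genes tested. Hspa1b was at 34.5 to 197 (median 86.9) CPM with CaAKG and 32.6 to 136 (median 60.5) CPM in controls, the largest positive log2 fold change among members at 0.36 (SE 0.28, adjusted p = 0.95). Hspa1a, at 47.6 to 299 (median 122.9) and 59.9 to 206 (median 96.0) CPM, was at 0.34, and Hspa2 at 0.28. The most negative was Hspb3 at -0.26 (SE 0.11, adjusted p = 0.61). All groups overlapped. For the abundant members the estimates were narrow: Hspa8 was at -0.047 (SE 0.079), Hsp90ab1 at 0.022 (SE 0.094) and Cryab at -0.072 (SE 0.12).

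Mice of 1 group that were high for Hspa1b tended to be high for other inducible genes. Deviations of log2 CPM from the group means were correlated over the 77 replicates for 10 pairs, with permutation tests within groups (100000 draws, two-sided, adjusted over the 10). Pearson's r was 0.857 for Hspa1a and Hspa1b (Spearman's rho 0.82), whose reads are split by estimate, 0.606 for Hspa1b and Hspb1 (rho 0.537) and 0.592 for Hspa1b and Hsp90aa1 (rho 0.542), each at adjusted p = 2e-05, set by the smallest p that these draws can give. For the first pair r was 0.831 in batch 1, 0.896 in batch 2 and 0.834 without the 2 replicates farthest from the median of Hspa1a. Hspa1b had an r of 0.425 with Dnajb1 (rho 0.38, adjusted p = 0.0015), 0.348 with Hsph1 (rho 0.271, adjusted p = 0.003) and 0.321 with Bag3 (rho 0.351, adjusted p = 0.0107). Within batch 1 and batch 2 alone r was 0.605 and 0.614 for Hspb1, 0.652 and 0.49 for Hsp90aa1, 0.277 and 0.628 for Dnajb1, 0.40 and 0.26 for Hsph1, and 0.222 and 0.505 for Bag3. Those for Dnajb1 and Bag3 in batch 1 and for Hsph1 in batch 2 did not pass. Without the 2 replicates farthest from the median of Hspa1b, r was 0.538 for Hspb1, 0.535 for Hsp90aa1, 0.398 for Dnajb1, 0.317 for Hsph1 and 0.32 for Bag3.

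Hspa1b also moved with the summed immediate early genes, which respond to handling and to stress before death as well as to activity. Pearson's r was 0.522 (rho 0.381, permutation test within groups, adjusted p = 8.3e-05), with 0.347 in batch 1 (adjusted p = 0.07), 0.719 in batch 2 (adjusted p = 0.00017) and 0.441 without the 2 farthest replicates. The part of handling in the levels of Hspa1b was not tested.

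Neighbouring and co-assembled genes were also compared. The spans of Hspb2 and Cryab, and those of Hspd1 and Hspe1, overlap on opposite strands in GENCODE M21. With the strand setting of the counts not known, reads from the overlap may be shared, and the part of this in their correlations was not tested. For Hspb2 and Cryab r was 0.571 (rho 0.568, permutation test within groups, adjusted p = 2e-05), with 0.603 and 0.526 in the batches and 0.557 without the 2 farthest replicates. For the CCT subunits Cct2 and Cct5 it was 0.765 (rho 0.741, adjusted p = 2e-05), with 0.668 and 0.86 in the batches and 0.722 without the farthest 2. For Hspd1 and Hspe1 it was 0.225 (rho 0.339, adjusted p = 0.14), with 0.145 in batch 1, 0.463 in batch 2 (adjusted p = 0.02) and 0.395 (adjusted p = 0.0083) without the 2 farthest replicates, so the pooled value rested on those 2. All such values also share library depth and the scaling between libraries.

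**Figure D5:**
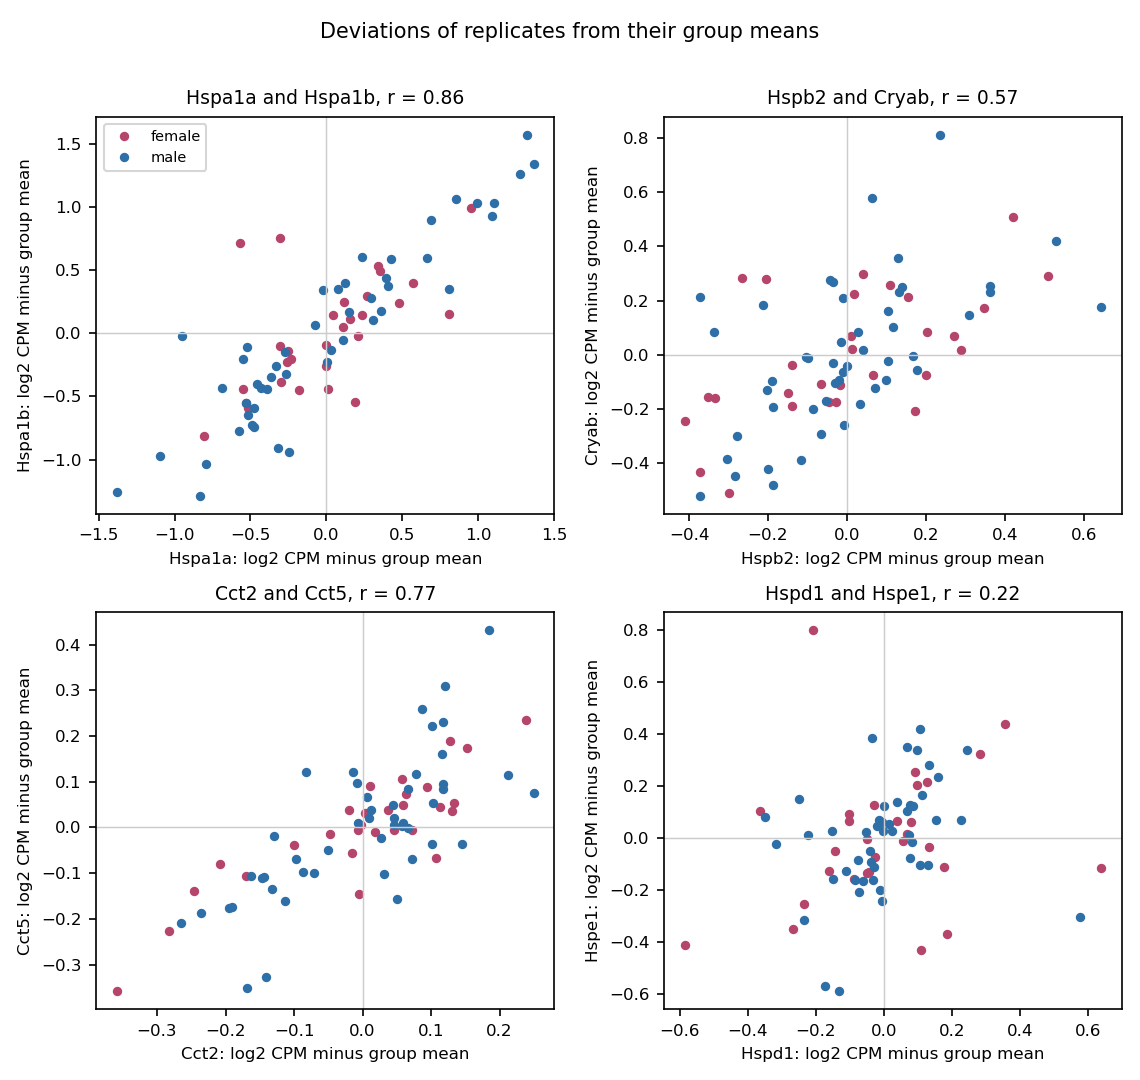
Deviations from group means (log2 CPM) of 77 replicates for 4 gene pairs, females and males in colour, with lines at 0. Points for Hspa1a and Hspa1b and for Cct2 and Cct5 follow a rising line (r of 0.857 and 0.765), those for Hspb2 and Cryab scatter about it (0.571), and a few replicates lie far off it for Hspd1 and Hspe1 (0.225).

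Chaperones outside the set were taken from a list of 70 further genes, among them J-domain proteins, prefoldins and folding factors. From 6 to 28 months 3 rose and 19 fell in females (9.91% and 9.04% of all genes) and 1 rose and 25 fell in males (6.76% and 9.38%). At 20 against 6 months 9 rose and 34 fell in females (18.2% and 17.8% of all genes) and 10 rose and 41 fell in males (22.6% and 22%). Stub1, the ubiquitin ligase that works with HSP70 and is inhibited by Bag2, fell by 1.03 and 1.05 at 20 months and by 0.54 and 0.57 at 28 months (females, then males). Grpel1, the nucleotide exchange factor of mitochondrial HSP70, fell by 0.92 and 0.90 at 20 months and 0.62 and 0.46 at 28 months, and the prefoldin subunit Pfdn1 by 1.18 and 1.14 at 20 months. Dnajc13, a J-domain protein of endosomes, rose by 0.99 and 0.80 at 20 months. At 12 months in males 2 rose and 15 fell (3.02% and 6.82% of all genes), with the J-domain gene Dnajb2 at -0.63 (SE 0.12, edgeR adjusted p = 0.00037). With CaAKG 0 passed (edgeR, 2 at an unadjusted p under 0.05, as were 1216 of the 18218 genes tested).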

How the data were processed

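RNA from soleus muscle was sequenced in paired ends. The authors deposited 1 table of expected counts per gene (RSEM estimates). The submitters' processing notes name FastQC, STAR 2.7.11b, RSEM 1.3.3 and the build mm10, while the annotation is, like the strand setting, not given in the sources used here, so antisense and near-identical genes may share counts. Of all values 8.99% were not whole (tolerance 1e-06) and were rounded. A further 55 columns matched no label and were not used. Symbols (35298 of 36904 IDs) came from the reference tables, and IDs without a symbol held 0.883% of the counts. Both libraries of 1 animal tag were summed although they differed (chi-square per gene 334, median of pairs within groups 92.3), which left 77 replicates of 19.5M to 112.4M counts.

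Genes were kept by filterByExpr (minimum count 10, total 15), which left 18218. CPM were computed here with TMM factors. One edgeR 4.0.16 quasi-likelihood fit of 11 group means (R 4.3.3) gave all 13 comparisons, with Benjamini-Hochberg adjustment over all genes tested and a threshold of 0.05. Simulated counts for some of these comparisons, drawn without a length trend, were also fitted, and the outcome is not given here. A difference is given as the first group minus the second. Replicates are labelled as separate mice, and where that fails p-values measure only the spread between these samples. Correlations used log2 CPM (prior count 2) minus group means, with 100000 permutations within groups and adjustment over 10 relations. CPM per kilobase used the longest coding transcript of GENCODE M21. Promoter windows of 250 bases came from RefSeq (GRCm38.p6).

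Alternatives were DESeq2 1.42.0, limma 3.58.1 (voom), other scaling, filters, offsets for length and GC content (spline with 5 degrees of freedom, lengths known for 97.52% of genes), fits of the compared groups, the replicate block and leaving out libraries. Scaling to another reference library was chosen after seeing the data. The members and lists were chosen with earlier results of these data known. Values by library are given for 18 genes of set roles and those among the most changed of each comparison (34 in all), and up to 4 of 70 further chaperone genes per comparison.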

Additional observations from a re-analysis of the deposited data

Results flagged for a closer look

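Among the members described by library, 340 sets of values (1 gene in 1 group of 4 to 10 replicates) were searched for a replicate standing apart, by Dixon's test of the gap to its nearest neighbour. In 40 a replicate stood apart, and chance gives about 1 in 20 for separate sets. The sets share libraries and are not separate tests, so that rate is no exact background for the 40.

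Male replicate 1 at 6 months was the highest of its group for 8 genes: Hspb1 (1846 CPM, the others at most 430.1), Cryab (5351, at most 3040), Hspb7 (3423, at most 2436), Hsp90aa1 (239.9, at most 132.6), Hspa1b (209.9, at most 91.79), Hsph1 (128.1, at most 92.19), Stip1 (158.8, at most 122.3) and Cct3 (138.1, at most 110 CPM). In the same group replicate 3 was high for Bag3 (317 CPM) and replicate 4 low for Tcp1 (199.5 CPM).

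At 12 months male replicate 3, a library against its sex label, was high for Hsp90aa1 (102.7 CPM), Hsph1 (73.9), Hspb1 (442.9) and Hspa4l (15.42). Female replicate 2 was high for Hspa1a (79.05 CPM), Hsph1 (64.59) and Bag3 (320.2), and female replicate 4, with 46.52% mitochondrial counts and against its sex label, for Hspe1 (240.2 CPM, the others at most 134.7).

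Female replicate 3 at 6 months, also against its label, was low for Hspa1a (32.31 CPM), Hspa8 (1256) and Cct5 (108.9), and replicate 2 high for Ahsa1 (109.8). At 20 months replicate 1 of the females was low for Fkbp4 (113.2 CPM), replicate 4 high for Cct5 (93.34), replicate 5 for Hspe1 (63.99) and replicate 6 for Hspb1 (439.2). Male replicate 1 of that age was high for Hsph1 (81.76 CPM) and Dnajb1 (25.51).

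At 28 months in batch 1, female replicate 8 was high for Dnajb1 (24.25 CPM), replicate 9 low for Dnaja1 (38.18) and replicate 13 high for Cacybp (52.83), while male replicate 11 was low for Bag3 (184.7), 13 low for Hspe1 (67.19) and 12 high for Cacybp (46.78). In batch 2, female replicate 7 was low for Cct2 (92.94 CPM) and replicate 1 high for Stip1 (130.6). Among control males of batch 2, replicate 7 was high for Dnajb1 (33.66 CPM), 4 for Hspa4l (18.57), and replicates 1 and 6 low for Hspa2 (12.76) and Cct3 (63.61).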

How the results depend on the processing

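Counts of members called moved by over 1.5 times under these settings, for which shares of all genes are not given. With length and GC offsets they were 3 in 28- against 6-month females, 13 in males of these ages, 5 in 20- against 6-month females, 12 in 12- against 6-month males, 2 and 0 in 28- against 20-month females and males, 1 between the sexes and 0 between batches in females. Fits of the compared groups alone gave 0 (28 against 6 months, females), 9 (12 against 6, males), 25 (28 against 20, males), 0 (batch, females) and 4 (batch, males). Without both kinds of doubted library they were 5 (28 against 6, females), 19 (28 against 20, males), 11 (batch, females) and 3 (interaction). Leaving out only libraries with skin or marrow transcripts gave 10 (batch, females) and 2 (interaction), and only those against their sex label 1 (interaction). Limma-voom with quality weights called 1 (12 against 6, females), 28 (28 against 20, males), 6 (sexes), 0 (batch, females) and 14 (batch, males). DESeq2 called 3 in the interaction and 2 between batches in males. The interaction gave 2 with RLE factors, without the mitochondrial genome, at a minimum count of 50, with the summed libraries kept apart and with another TMM reference, and 1 with Hspa1a and Hspa1b together. Without a filter on low counts 3 were called between batches in females. Signs reversed with the offsets for Hspa4 at 20 against 6 months in females (-0.020) and for Hspb2 at 28 against 20 months in females (-0.018). Of the correlations, those of Hspa1b with Dnajb1 (0.277), Bag3 (0.222) and the immediate early genes (0.347) did not pass in batch 1, nor that with Hsph1 in batch 2 (0.261). Hspd1 and Hspe1 passed by rank (0.339), without doubted libraries (0.381), in batch 2 (0.463) and without the 2 farthest replicates (0.395). The causes were not tested.

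Leaving out 1 replicate at a time gave 5 to 13 calls (28 against 6 months, females), 18 to 27 (males), 14 to 19 and 29 to 31 (20 against 6, females and males), 0 to 8 and 11 to 27 (12 against 6), 10 to 14 and 8 to 13 (28 against 20), 0 (CaAKG), 1 to 2 (sexes), 0 to 3 (interaction), and 2 to 6 and 0 (batch, females and males). Replicate numbers paired no samples: the deviations of same-numbered replicates correlated above 0.1 in 0 pairs of 5 comparisons and in 3 of 10 pairs for CaAKG. With the replicate block the counts were 18 and 29 (20 against 6, females and males), 0 and 21 (12 against 6), 0 (CaAKG) and 2 (sexes). Under the other settings tried, counts of members stayed within 1.5 times their values. Every member had counts above 0 in every replicate, and depth was not tested as a limit.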

Other observations

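Prefoldin hands unfolded actin and tubulin to the CCT ring, and its subunits Pfdn5 and Pfdn6 rose from 20 to 28 months in males, by 0.61 and 0.47 on the log2 scale (edgeR adjusted p = 0.00051 and 0.00056), from 50.8 to 77.6 and from 18.3 to 25.4 CPM (group means). Of the 70 further chaperone genes 20 rose and 11 fell between these ages in females (17.3% and 12.6% of all genes) and 22 rose and 6 fell in males (8.25% and 8.78%). Dnajb14, a J-domain protein of the endoplasmic reticulum membrane, fell by 0.81 in females and 0.70 in males. In 28-month females it was higher in batch 2 than in batch 1 by 0.76 (edgeR adjusted p = 0.00012), with 19.6 against 11.6 CPM, while Hscb, the J-domain protein of iron-sulfur cluster assembly, was lower in batch 2 (log2 fold change -0.77, edgeR adjusted p = 0.0021). In that batch comparison 8 of the 70 were higher and 17 lower in batch 2 (6.75% and 13.0% of all genes). Between the batches in males 0 passed (edgeR, 19 at an unadjusted p under 0.05, as were 2579 of the 18218 genes tested).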
